A study of Homo sapiens with 4 samples.

Results

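The mitochondrial ribosomal protein genes are nuclear genes whose products are imported into mitochondria and built into the ribosome there. They were chosen by name, as protein-coding genes with a symbol that starts with MRPL or MRPS and a digit, and 76 of the 57820 listed gene IDs met this rule. No ID was matched to the symbols MRPL45 and MRPS21, and 73 pseudogenes and 7 other non-coding entries with similar names were left out. RNA was sequenced from MOLM-13, a human cell line from an acute myeloid leukaemia. In the GADD45g group, GADD45g was overexpressed through doxycycline (dox), which the labels give as 1 mg/ml over 4 days. The control group was the same line with no treatment. Each group had 2 libraries, described in the design text as biological replicate experiments, so p-values cover only the spread between these 4 libraries. The fit (limma) draws the spread of each gene towards that of the other genes. Its SE and p-values are thus not the replicate error of that gene alone. Doxycycline and GADD45g went together, and a doxycycline group without overexpression was not analysed here, so their parts cannot be told apart.

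The mitochondrial ribosome translates the few mRNAs of the mitochondrial genome, all of which encode subunits of the respiratory chain and ATP synthase. Its large subunit forms peptide bonds and holds the exit tunnel, and its small subunit binds the mRNA and decodes it. Part of its proteins descend from bacterial ribosomal proteins, and part are found only in mitochondrial ribosomes. A protein of the large subunit, GADD45GIP1 (CRIF1), is named for its binding to GADD45 proteins.

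Levels are given in RPKM, which divides reads by gene length and by depth, so they can be set side by side between genes. The libraries held 18895470 and 15968886 reads in the GADD45g group and 18778791 and 15683931 reads in controls, as recovered from the values. GADD45G itself was at 3236 and 2118 RPKM in the GADD45g libraries, against 10.5 and 0.289 RPKM in controls, a change of 9.41 ± 0.73 on the log2(RPKM + 1) scale (SE; limma adjusted p = 9.10e-06). The pan-leukocyte marker PTPRC was at 28.5 and 36.1 RPKM in GADD45g libraries and 25.1 and 23.9 RPKM in controls, whereas MPO stayed under 0.3 RPKM in all 4 libraries. The 10 myeloid markers were all above 0 in each library and summed to 438 and 401 RPKM in GADD45g libraries and 1314 and 1031 RPKM in controls. LYZ made up most of each sum, at 268 and 242 RPKM in GADD45g libraries and 1173 and 868 RPKM in controls. Of the 7 that could be tested, LYZ (log2 change -1.98) and CSF3R (-2.30) fell, ITGAM (0.79) rose and 4 were not called. The median change of the 7 was 0.03 (log2). The part of these marker changes in the results was not tested. FLT3, a receptor of haematopoietic progenitors, was at 0.0889 and 0.0451 RPKM in GADD45g libraries and 0.958 and 1.19 RPKM in controls. Of 5 epithelial markers (KRT8, KRT18, KRT19, EPCAM and CDH1), the summed level was 39.4 and 0.0959 RPKM in GADD45g replicates 1 and 2, and 40.0 and 0.0311 RPKM in controls 1 and 2. That signal was thus in the replicate 1 library of both groups, while pair 2, which lacks it, is given by itself with the replicates.

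More than 1 in 2 tested mitochondrial ribosomal protein genes fell in GADD45g cells. Of the 76 genes, 66 could be tested. The other 10 were not: 6 are missing from the file of GADD45g replicate 1, which ends within a row after 27332 IDs, and 4 averaged under 1 RPKM. A gene is called here when limma's Benjamini-Hochberg adjusted p over all 10762 tested genes is under 0.05. By this rule 36 of the 66 (54.5%) fell and 2 (3.03%) rose. Over all tested genes, 26.7% fell (2871 genes) and 12.2% rose (1315 genes). The median change of the 66 genes was -0.72 on the log2(RPKM + 1) scale, with quartiles of -1.01 and -0.37, beside -0.21 over all tested genes, with quartiles of -0.70 and 0.26. Both GADD45g values lay below both controls for 54 genes (81.8%), beside 45.8% of all tested genes. Both lay above both controls for 3 genes (4.55%), beside 24.1% of all tested genes, and the groups overlapped for 9.

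The lower level is also seen in the libraries as a whole. The median level of the 66 genes was 8.94 and 8.63 RPKM in GADD45g libraries, against 13.9 RPKM in each control. Summed, they came to 899 and 786 RPKM in GADD45g libraries and 1314 and 1244 RPKM in controls, and their reads made up 0.216% and 0.192% of the depth against 0.332% and 0.301%, in the same order. The median over all tested genes was 6.67 and 6.55 RPKM in GADD45g libraries and 7.90 and 7.97 RPKM in controls. RPKM is a share of each library, and these are bulk samples, so fewer cells of a type and less RNA per cell cannot be told apart. Scaling by a trimmed mean of the log ratios moved the median of all tested genes to 0.0043 (log2), and with it 19 of the 66 genes (28.8%) fell, beside 19% of all tested genes, and 2 rose, beside 17.8%. The median of the 66 genes was then -0.49 (log2), which is 0.49 below that of all tested genes, against 0.51 below it without this scaling. On the recovered reads, with limma's voom, 38 genes fell, beside 29.9% of all tested genes, and 2 rose, beside 13.6%. With the median change centred at 0, 22 fell, beside 19.2%, and 2 rose, beside 17.6%. With each library left out, fewer of the 66 genes and fewer of all tested genes were called lower. The median of the 66 genes was then -0.76 (log2) without GADD45g replicate 1 and -0.61 without GADD45g replicate 2. It was -0.62 without control 1 and -0.70 without control 2. The medians of all tested genes in the same order were -0.22, -0.21, -0.22 and -0.21.

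**Figure D1:**
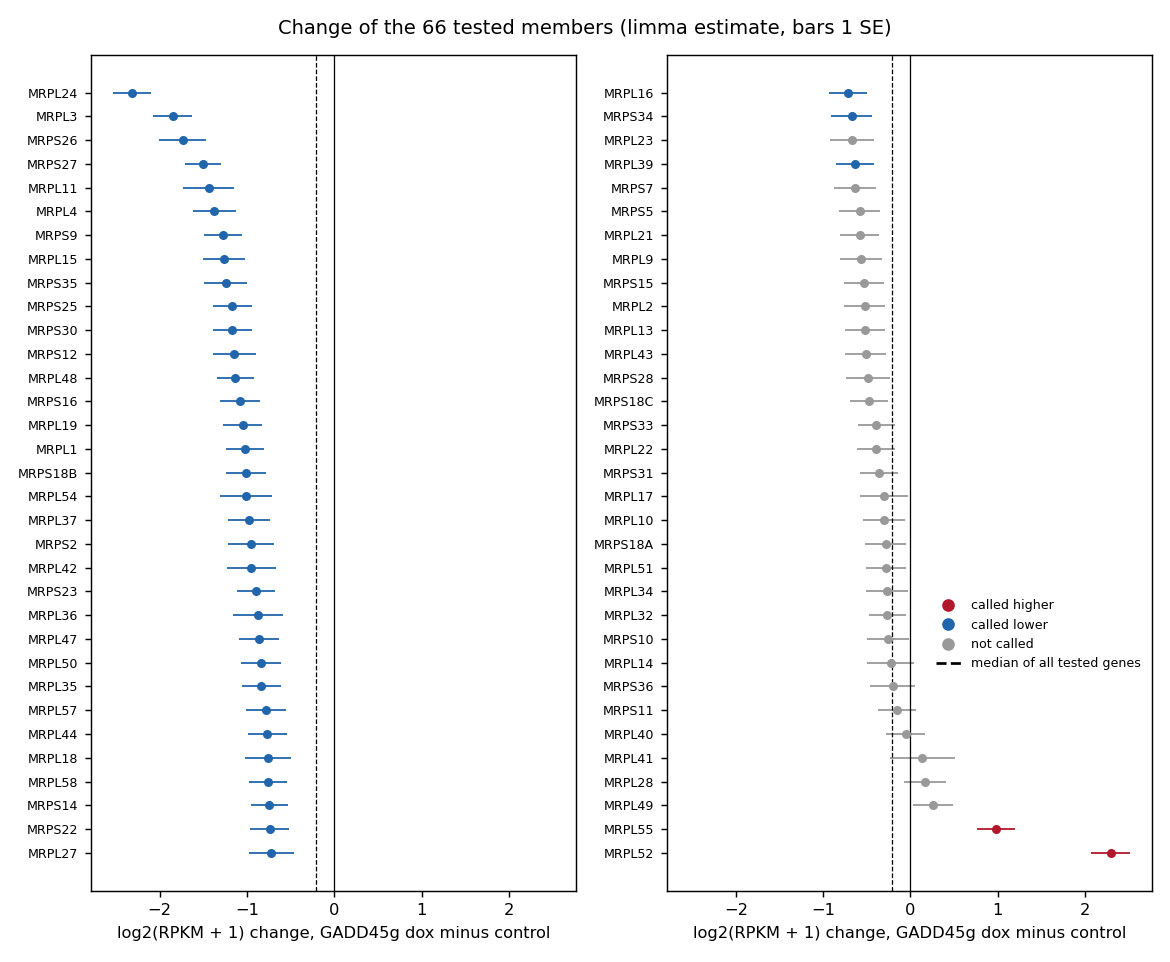
Change in log2(RPKM + 1), GADD45g minus untreated control, of the 66 tested mitochondrial ribosomal protein genes (n = 2 libraries per group). Genes are ordered from the largest decrease to the largest increase over both panels. Bars are 1 SE from limma, which also draws on the spread of the other tested genes. Genes that fell are blue, genes that rose red and genes not called grey; the dashed line is the median of all tested genes (-0.21), and 5 genes lie above 0 with RPKM as deposited.

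Genes of both subunits fell. The shares below stand beside 26.7% lower and 12.2% higher over all tested genes. Of the large subunit, 43 genes were tested, 23 fell (53.5%) and 2 rose (4.65%), with a median change of -0.71 (log2). Of the small subunit, 22 genes were tested, 13 fell (59.1%) and none rose, with a median of -0.74 (log2). For 21 of the 22 (95.5%), beside 45.8% of all tested genes, both GADD45g values lay below both controls. Genes for proteins found only in mitochondrial ribosomes had 18 lower (66.7%) and 1 higher of 27, median -0.76 (log2). Genes with bacterial relatives had 18 lower (47.4%) and 1 higher of 38, median -0.65 (log2). The difference between these classes was not tested. The highest share that fell was among the mitochondria-specific genes of the small subunit, with 8 of 10 and a median of -0.95 (log2).

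Promoter sequences are shown for the 3 largest decreases and for both increases, since these genes moved in opposite directions. The stretches are the 150 bases before the annotated start, 5′ to 3′ on the strand of the gene, from RefSeq on GRCh38.p14. Capitals mark matches, on either strand, to the ETS motif CCGGAAG or to the YY1 motif AAGATGGCG. The coordinates are MRPL24 at chr1:156741089-156741238 (minus strand), MRPL3 at chr3:131502972-131503121 (minus), MRPS26 at chr20:3045902-3046051 (plus), MRPL52 at chr14:22829737-22829886 (plus) and MRPL55 at chr1:228109300-228109449 (minus).
MRPL24: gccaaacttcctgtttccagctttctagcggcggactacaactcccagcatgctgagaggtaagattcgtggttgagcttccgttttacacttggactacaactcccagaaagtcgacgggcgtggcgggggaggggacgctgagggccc
MRPL3: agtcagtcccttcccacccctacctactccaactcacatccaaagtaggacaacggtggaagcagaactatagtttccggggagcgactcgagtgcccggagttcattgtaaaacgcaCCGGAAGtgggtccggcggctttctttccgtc
MRPS26: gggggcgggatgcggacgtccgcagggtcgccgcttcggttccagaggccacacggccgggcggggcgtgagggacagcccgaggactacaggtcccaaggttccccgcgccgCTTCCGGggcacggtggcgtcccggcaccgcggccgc
MRPL52: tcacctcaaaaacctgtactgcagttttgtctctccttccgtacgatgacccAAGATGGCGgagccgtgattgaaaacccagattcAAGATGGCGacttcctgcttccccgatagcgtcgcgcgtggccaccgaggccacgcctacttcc
MRPL55: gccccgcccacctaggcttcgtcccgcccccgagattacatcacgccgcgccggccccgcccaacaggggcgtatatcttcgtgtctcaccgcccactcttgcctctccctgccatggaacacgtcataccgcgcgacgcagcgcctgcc

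Motifs were searched on both strands in the 300 bases from 250 before to 50 after each start, for the 67 of 76 genes matched to a RefSeq promoter. ETS-family factors, NRF1 and YY1 are known regulators of nuclear genes for mitochondrial proteins, and MYC binds the E-box CACGTG. The ETS motif CCGGAAG was in 28 of 67 promoters (41.8%), beside 10.7% of all 27305 promoters and 21.0% of the 8396 promoters of tested genes. The YY1 motif AAGATGGCG was in 13 (19.4%), beside 1.85% of all promoters and 4.51% of those of tested genes. The NRF1 motif (GCGCA, any base, then GCGC) was in 7 (10.4%), beside 6.28% and 13.0%, and the E-box was in 5 (7.46%), beside 7.43% and 10.6%. Among genes that fell, 13 of 34 promoters held the ETS motif and 5 of 34 the YY1 motif, and among those not called 9 of 21 and 4 of 21. MRPL52, which rose, holds the YY1 motif at 2 positions in the printed stretch, while the stretches of MRPL24 and MRPL55 hold none of these motifs. A match is a string in this window and shows no binding.

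MRPL24 had the largest decrease of the family, and MRPL3 the next. MRPL24 (ENSG00000143314), a protein at the rim of the exit tunnel, was at 7.43 and 6.65 RPKM in GADD45g libraries, against 39.5 and 38.5 RPKM in controls. This rests on 238 and 180 reads in GADD45g libraries and 1258 and 1023 reads in controls, and the mean was 5.54-fold lower (log2 change -2.32 ± 0.22, SE; limma adjusted p = 3.10e-05). The replicates lay close together and far from the other group. MRPL3, whose bacterial relative reaches towards the peptidyl transferase centre, was at 8.26 and 8.14 RPKM in GADD45g libraries and 34.6 and 29.8 RPKM in controls, 3.93-fold lower (log2 change -1.85 ± 0.22; limma adjusted p = 0.000119). MRPL4, whose bacterial relative lines the exit tunnel, was at 5.47 and 3.71 RPKM in GADD45g libraries and 11.6 and 15.2 RPKM in controls, 2.92-fold lower (limma adjusted p = 0.00138). For MRPL15, a large-subunit protein of bacterial descent, the values were 13.1 and 17.4 RPKM in GADD45g libraries and 36.2 and 39.3 RPKM in controls, 2.48-fold lower (limma adjusted p = 0.00186). None of these genes had overlapping groups, which was part of the rule by which they were named.

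By region of the large subunit, the stalk, which recruits translation factors, had 5 genes listed and 3 tested. Of these, 2 fell (66.7%, beside 26.7% of all tested genes). MRPL11, at the base of the stalk, was at 5.29 and 2.49 RPKM in GADD45g libraries and 13.5 and 10.1 RPKM in controls, 3.03-fold lower (log2 change -1.44 ± 0.29; limma adjusted p = 0.00280). MRPL54 fell by 1.01 (log2), whereas MRPL10, the stalk protein that anchors MRPL12, had a log2 change of -0.30 that was not called. Of the central protuberance, which faces the small subunit, 5 of 7 listed genes were tested: 3 fell (MRPL18, MRPL27 and MRPL48), 1 rose (MRPL55), and MRPL40 was not called. MRPL48 had 0.857 and 0.814 RPKM in GADD45g libraries and 3.02 RPKM in each control, on 71 and 57 against 249 and 208 reads in the same order. It passed the filter of 1 RPKM only through its controls. Of 18 settings (the fit described above and 17 alternatives, with 1 choice changed or 1 library left out), the calls held in 11 for MRPL54, 7 for MRPL27 and all 17 in which it could be tested for MRPL48. Without GADD45g replicate 2 or control 1, MRPL54 and MRPL27 both lost them, and MRPL27 also without control 2. At the exit tunnel, 2 of 5 tested genes fell (MRPL24 and MRPL47), which is 40.0%, beside 26.7% of all tested genes. The range over the 5 was -2.32 to -0.31 (log2). The call of MRPL47 held in 15 of 18 settings and was lost without GADD45g replicate 1 and without control 1.

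Further large-subunit genes with a known activity also fell. MRPL58 (ICT1), a peptidyl-tRNA hydrolase that frees stalled ribosomes, was at 9.74 and 10.2 RPKM in GADD45g libraries and 16.5 and 18.5 RPKM in controls (limma adjusted p = 0.0188). MRPL44, which carries a ribonuclease III-like fold, was at 15.3 and 13.9 RPKM in GADD45g libraries and 27.9 and 23.3 RPKM in controls (limma adjusted p = 0.0215). Both were chosen for their role after their values were seen. The calls held in 11 of 18 settings for MRPL58 (lost without either GADD45g library or control 2, adjusted p up to 0.107) and in 10 of 18 for MRPL44 (lost without either GADD45g library or control 1, adjusted p up to 0.125). MRPS30, which despite its symbol belongs to the large subunit, was at 4.04 and 3.08 RPKM in GADD45g libraries and 10.1 and 8.30 RPKM in controls, 2.59-fold lower (limma adjusted p = 0.00219).

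Of the small subunit, MRPS26 and MRPS27 changed most. MRPS26, a mitochondria-specific protein, was at 12.6 and 7.67 RPKM in GADD45g libraries and 31.8 and 38.9 RPKM in controls, 3.48-fold lower (log2 change -1.74 ± 0.27; limma adjusted p = 0.000563). MRPS27, a pentatricopeptide repeat protein, was at 2.19 and 2.25 RPKM in GADD45g libraries and 8.02 and 8.25 RPKM in controls, 3.67-fold lower (log2 change -1.50 ± 0.21; limma adjusted p = 0.000289). The spread within groups was larger for MRPS26 than for MRPS27. Neither had overlapping groups, which was part of the rule by which they were named. MRPS9, whose bacterial relative touches the tRNA in the P site, was at 8.15 and 7.13 RPKM in GADD45g libraries and 20.6 and 19.2 RPKM in controls (2.61-fold lower; limma adjusted p = 0.00107). MRPS12, the relative of the bacterial decoding-centre protein S12, was at 8.61 and 5.67 RPKM in GADD45g libraries and 15.6 and 17.9 RPKM in controls (2.35-fold lower; limma adjusted p = 0.00386). The mitochondria-specific MRPS35 was at 10.6 and 14.1 RPKM in GADD45g libraries and 34.4 and 26.8 RPKM in controls, and MRPS25 at 9.51 and 8.60 RPKM in GADD45g libraries and 23.4 and 19.8 RPKM in controls. These 2 genes were 2.48-fold and 2.39-fold lower (limma adjusted p = 0.00246 and 0.00206, in that order).

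**Figure D2:**
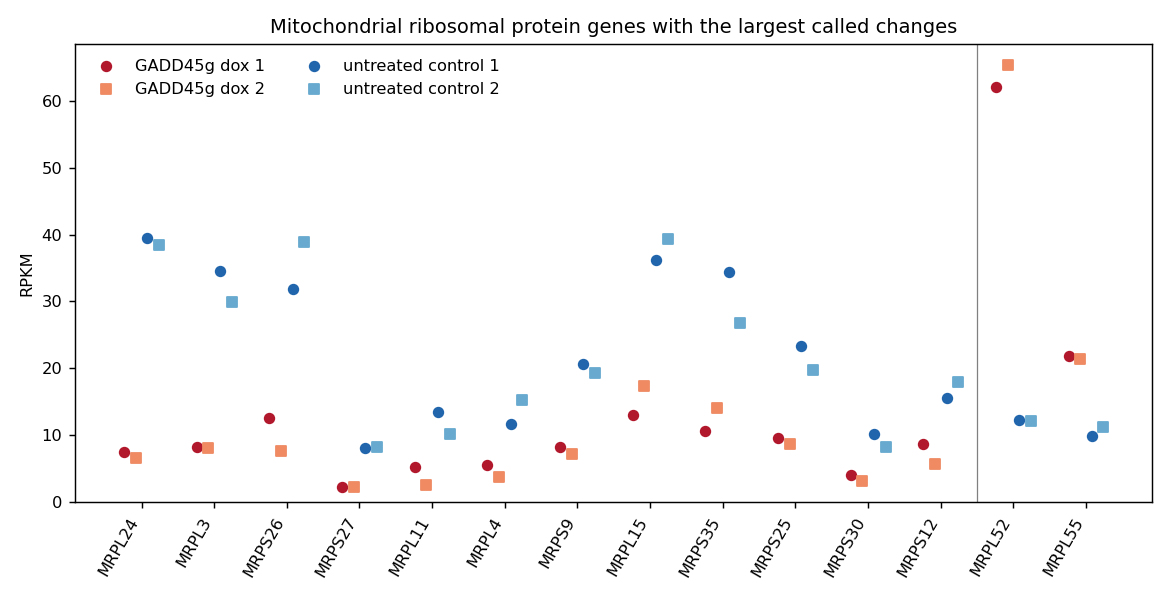
RPKM in each of the 4 libraries for the 12 mitochondrial ribosomal protein genes with the largest decreases (left of the line) and the 2 that rose (right of it); circles are replicate 1 and squares replicate 2, red for GADD45g and blue for untreated controls. The 12 decreases were picked among called genes without overlap, so by that rule both GADD45g points lie below both controls. MRPL52 is the highest of the 14 in GADD45g libraries, at 62.1 and 65.4 RPKM.

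The 36 genes that fell did so by 1.60-fold to 5.54-fold (median 2.16-fold), and 22 of them by at least 2-fold. Small folds are less often called, so the threshold shapes the lower end of this range. A decrease of at least 1 on the log2(RPKM + 1) scale was seen in 18 of the 66 tested members. The same held for 1698 of all 10762 tested genes. Of these 36, 13 were also called lower under every alternative setting in which they could be tested, left-out libraries included: MRPL3, MRPL4, MRPL15, MRPL24, MRPL48, MRPS9, MRPS16, MRPS18B, MRPS25, MRPS26, MRPS27, MRPS30 and MRPS35. MRPL11 and MRPS12 lost the call without the filter on low values and without 1 library each. MRPL11 had an adjusted p of 0.0600 without control 1 (range over alternatives 3.83e-08 to 0.0819), and MRPS12 one of 0.0580 without GADD45g replicate 2 (range 2.45e-05 to 0.0580).

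A pair of large-subunit genes went the other way. MRPL52 (ENSG00000172590), a mitochondria-specific protein, was at 62.1 and 65.4 RPKM in GADD45g libraries, against 12.2 and 12.1 RPKM in controls. Counted in reads, that is 3772 and 3354 in GADD45g libraries and 739 and 612 in controls. The means were 63.8 ± 2.29 RPKM in GADD45g libraries and 12.2 ± 0.0731 RPKM in controls (SD, n = 2 each), a 5.23-fold increase (log2 change 2.29 ± 0.22; limma adjusted p = 3.55e-05). By mean level it ranked 1 of the 70 genes with a value in both GADD45g libraries, and 43 of 76 in controls. MRPL55 (ENSG00000162910), the relative of bacterial L31, was at 21.9 and 21.3 RPKM in GADD45g libraries and 9.80 and 11.2 RPKM in controls, 2.06-fold higher (log2 change 0.98 ± 0.22; limma adjusted p = 0.00505). It ranked 10 of 70 in GADD45g libraries and 52 of 76 in controls. Both genes were called higher in all 18 settings.

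The genes beside these 2 on the chromosome, looked up after the values were seen, had the following levels. MRPL52 lies between SLC7A7, an amino acid transporter gene on the opposite strand, and MMP14, a membrane-bound matrix metalloproteinase gene on the same strand. SLC7A7 was at 27.1 and 24.8 RPKM in GADD45g libraries and 2.15 and 1.90 RPKM in controls (log2 change 3.16). MMP14 was at 56.7 and 48.9 RPKM in GADD45g libraries and 0.990 and 0.828 RPKM in controls (log2 change 4.81). Both genes were called higher (limma adjusted p = 3.47e-06 for SLC7A7 and 2.61e-07 for MMP14). Beside MRPL55, GUK1, a guanylate kinase gene on the opposite strand, was at 38.5 and 23.5 RPKM in GADD45g libraries and 13.0 and 14.2 RPKM in controls (log2 change 1.09; limma adjusted p = 0.00817). On its other side, C1orf35 had a log2 change of -0.34 that was not called (limma adjusted p = 0.291). Whether reads of these neighbours entered the values of MRPL52 or MRPL55 was not tested.

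Among the 28 tested genes that were not called, 25 had a negative and 3 a positive estimate. Over all 10762 tested genes, called or not, 6682 estimates were negative and 4080 positive. Of the 28, 18 had both GADD45g values below both controls, beside 45.8% of all tested genes. Neither share was counted over uncalled genes alone. The smallest estimates were those of MRPL40 (8.05 and 10.1 RPKM in GADD45g libraries, 9.59 and 9.28 RPKM in controls) and MRPL41 (30.3 and 11.0 RPKM in GADD45g libraries, 15.1 and 18.3 RPKM in controls). The GADD45g values of MRPL41 lay on either side of its controls. MRPS11 was at 6.57 and 5.33 RPKM in GADD45g libraries and 6.51 and 6.85 RPKM in controls, and MRPL28 at 16.1 and 11.6 RPKM in GADD45g libraries and 12.6 and 11.5 RPKM in controls. MRPS36, now assigned to the 2-oxoglutarate dehydrogenase complex rather than to the ribosome, was at 8.37 and 12.9 RPKM in GADD45g libraries and 11.0 and 13.5 RPKM in controls. The limma adjusted p of these 5 genes lay between 0.556 (MRPS36) and 0.866 (MRPL40), and a p above the threshold does not show that they were equal. MRPL49 was the remaining gene with a positive estimate, at 14.6 and 12.5 RPKM in GADD45g libraries and 12.4 and 10.1 RPKM in controls (limma adjusted p = 0.405).

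Of the 5 genes with the highest mean level over the 4 libraries, MRPL52 rose, MRPL18 fell and the other 3 were not called. MRPL18, of the central protuberance, was highest in controls. It stood at 49.0 and 39.3 RPKM in GADD45g libraries and 89.2 and 63.1 RPKM in controls (log2 change -0.76 ± 0.26; limma adjusted p = 0.0417). The call held in 9 of 18 settings and was lost without GADD45g replicate 1 (adjusted p = 0.0653), GADD45g replicate 2 (0.218) or control 1 (0.197), with a range over alternatives of 0.00810 to 0.218. MRPL14 was at 61.9 and 40.9 RPKM in GADD45g libraries and 63.1 and 55.4 RPKM in controls, and its groups overlapped. MRPS10 was at 45.7 and 47.6 RPKM in GADD45g libraries and 61.6 and 50.7 RPKM in controls, and MRPL51 at 36.3 and 32.9 RPKM in GADD45g libraries and 44.3 and 40.2 RPKM in controls. The groups of MRPS10 and MRPL51 did not overlap, but neither was called (limma adjusted p = 0.427 and 0.362, in that order). The order of levels differed in part between the groups. Across the 66 genes, Spearman's rho between mean GADD45g and mean control levels was 0.78, a description across genes that share the same libraries.

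Taken by replicate number, the change was negative in both pairs for 57 of 66 genes, positive in both for 4 and of opposite sign for 5. The median change of the 66 genes was -0.70 (log2) in each pair. Pairs were not counted over all tested genes. In the fit, 6682 of all 10762 tested genes had a negative change, beside 61 of the 66. How far the pair counts go with the shift of all genes was not tested. Pair 2 holds the libraries without the epithelial signal. Pearson's r between the 2 sets of changes was 0.80 and Spearman's rho 0.69 over the 66 genes, as a description. The SD of the change over genes was 0.64 (log2) for the 66, beside 0.92 for all tested genes. GADD45g replicate 2 was below GADD45g replicate 1 for 45 genes, and control 2 below control 1 for 42.

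**Figure D3:**
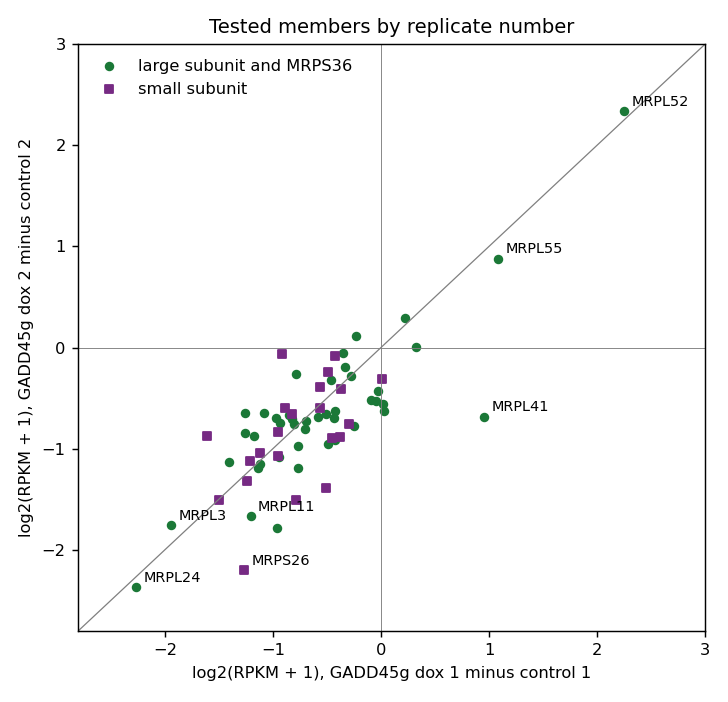
Change in log2(RPKM + 1) of each of the 66 tested genes in replicate pair 1 (horizontal axis) and pair 2 (vertical axis), with the line of equal change; green circles are large-subunit genes and MRPS36, purple squares small-subunit genes. MRPL24 and MRPL52 lie at opposite ends near the line, and MRPL41 is the point farthest on the positive side in pair 1 that is negative in pair 2.

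For the 10 untested genes, values are given without a test on 4 libraries. MRPL12, the stalk protein related to bacterial L7/L12, had 0.914 RPKM in GADD45g replicate 2 and 9.64 and 7.81 RPKM in controls, on 15 against 186 and 126 reads. MRPL20 had 16.3 RPKM in GADD45g replicate 2 and 28.1 and 27.8 RPKM in controls, and MRPS17 had 0.871 RPKM in GADD45g replicate 2 and 3.18 and 2.10 RPKM in controls. These 3 were lower than both controls. MRPL33 had 42.3 RPKM in GADD45g replicate 2 and 22.6 and 27.5 RPKM in controls, and MRPS6 had 17.0 RPKM in GADD45g replicate 2 and 15.7 and 11.1 RPKM in controls. MRPL46 had 0.497 RPKM in GADD45g replicate 2 and 0.613 and 0.575 RPKM in controls. In a fit that kept genes missing from the shortened file and so rested on 3 libraries for them, MRPL12 passed the threshold (log2 change -2.34; limma adjusted p = 0.00576).

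The 4 genes that averaged under 1 RPKM rest on few reads, 3 to 43 a library for MRPL38, MRPL53 and MRPS24. MRPL38 was at 0.532 and 0.450 RPKM in GADD45g libraries and 0.548 and 0.611 RPKM in controls. MRPL53 was at 0.669 and 1.16 RPKM in GADD45g libraries and 0.475 and 0.854 RPKM in controls, and MRPS24 at 0.263 and 0.359 RPKM in GADD45g libraries and 0.224 and 0.0732 RPKM in controls. MRPL30 had a single read in GADD45g replicate 1 and 0 reads in the other 3 libraries, and a count of 0 allows up to 3 reads.

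The 5 genes with the lowest level in controls all share exon bases with another gene. In GENCODE 29 on GRCh38, 10 of the 76 genes share more than 10% of their exon bases with another gene on the same strand, from MRPL20 at 10.5% to MRPL12 at 68.2%. The mean control level was under 1 RPKM for 5 of these 10 (MRPL30, MRPL38, MRPL46, MRPL53 and MRPS24) and for 0 of the other 66. The medians of the control mean were 1.65 RPKM for the 10 and 13.5 RPKM for the 66. Across the files, 149 of 160 protein-coding IDs with at least 95% same-strand overlap (93.1%) were listed at 0 in the 3 complete libraries, beside 549 of 1724 IDs without overlap (31.8%). How reads in shared exons were assigned is not given here, which limits how far the levels of these 10 genes can be compared with those of the other 66.

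**Figure D4:**
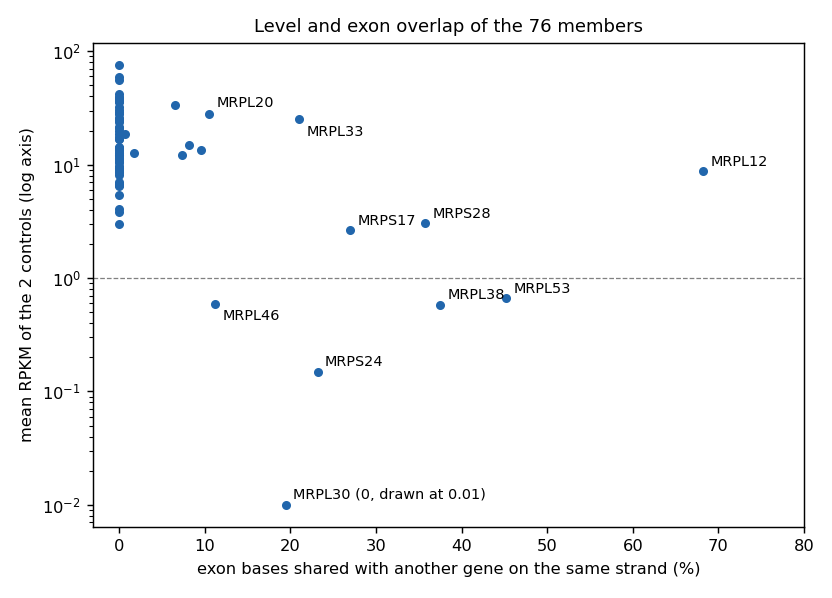
Mean RPKM of the 2 untreated controls (log axis) against the percentage of exon bases shared with another gene on the same strand, for the 76 genes; MRPL30, listed at 0 in both controls, is drawn at 0.01. Named points are the 10 genes with more than 10% overlap, and the 5 points below the dashed line at 1 RPKM are all among them.

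Of 5 tested mitochondrial ribosomal proteins with other symbols, 2 fell (GADD45GIP1 and PTCD3; 40.0%, beside 26.7% of all tested genes) and none rose (beside 12.2%), with a median of -0.45 (log2). GADD45GIP1 was at 28.8 and 24.5 RPKM in GADD45g libraries and 40.1 and 50.4 RPKM in controls, 1.70-fold lower (log2 change -0.74 ± 0.24; limma adjusted p = 0.0324). Among other settings, that call was lost under upper-quartile, trimmed-mean and quantile scaling, and without GADD45g replicate 1 (adjusted p = 0.0707), GADD45g replicate 2 (0.177) or control 2 (0.125), with a range over alternatives of 0.0108 to 0.177. PTCD3, a pentatricopeptide repeat protein of the small subunit, was at 4.03 and 4.31 RPKM in GADD45g libraries and 10.3 and 9.11 RPKM in controls (log2 change -1.05; limma adjusted p = 0.00288). DAP3, a GTP-binding protein of the small subunit, had a change of -0.45 (log2) that was not called.

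Genes that work with this ribosome were followed in 2 lists. Of 14 tested translation factors 4 fell (28.6%) and none rose (median -0.43, log2), a share near the 26.7% of all tested genes that fell. The elongation factor GFM1 was at 2.57 and 2.41 RPKM in GADD45g libraries and 9.07 and 7.39 RPKM in controls (limma adjusted p = 0.000579). GUF1, a ribosome-binding GTPase, was at 5.12 and 6.02 RPKM in GADD45g libraries and 14.7 and 11.7 RPKM in controls (limma adjusted p = 0.00290). The elongation factor TUFM (limma adjusted p = 0.0261) and the recycling factor MRRF (limma adjusted p = 0.0209) also fell. TUFM lost its call without GADD45g replicate 2 or either control (adjusted p up to 0.243), and MRRF without either GADD45g library or control 2 (up to 0.136). Of 25 tested assembly and rRNA-modification genes 14 fell (56.0%, beside 26.7% of all tested genes) and none rose (beside 12.2%), with a median of -0.67 (log2). This list is wider than its name, as it also holds LRPPRC, SLIRP and C1QBP, which are among the 14 that fell. LRPPRC, which stabilises mitochondrial mRNAs, was at 7.89 and 8.65 RPKM in GADD45g libraries and 45.6 and 40.6 RPKM in controls (log2 change -2.25; limma adjusted p = 3.92e-05). RBFA, a maturation factor of the small subunit, was at 0.412 and 0.370 RPKM in GADD45g libraries and 3.96 and 4.13 RPKM in controls (limma adjusted p = 9.00e-05). RBFA passed the filter of 1 RPKM only through its controls. C1QBP, a mitochondrial matrix protein, was at 12.9 and 8.77 RPKM in GADD45g libraries and 65.9 and 47.9 RPKM in controls (limma adjusted p = 9.47e-05), and RPUSD4, which makes pseudouridine in mitochondrial RNA, had a log2 change of -1.52 (limma adjusted p = 0.000765).

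Of 12 regulators of mitochondrial biogenesis 6 fell (beside 26.7% of all tested genes) and none rose (beside 12.2%), with a median of -0.88 (log2). MYC was at 1.59 and 1.07 RPKM in GADD45g libraries and 35.1 and 42.9 RPKM in controls (log2 change -4.10; limma adjusted p = 9.81e-07). The mitochondrial transcription factor TFB2M fell by 1.35 (log2), and the coactivators PPRC1 and PPARGC1A fell by 1.64 and 1.23 (log2). PPARGC1A was low throughout, at 0.332 and 0.274 RPKM in GADD45g libraries and 1.90 and 2.20 RPKM in controls. It passed the filter of 1 RPKM only through its controls. So did PPARGC1B, also among the 6 that fell, at 0.579 and 0.831 RPKM in GADD45g libraries and 2.37 and 3.35 RPKM in controls. A gene as low in both groups would not have been tested. The other 6 were not called: NRF1 (log2 change 0.04), GABPB1 (0.11), ESRRA (-0.08), POLRMT (-0.18), GABPA (-0.44) and YY1 (-0.59). NRF1 and YY1 are among the factors whose motifs were searched above (limma adjusted p = 0.906 for NRF1 and 0.0542 for YY1). Of the 12 tested mRNAs that the mitochondrial ribosome translates, 5 fell (41.7%, beside 26.7% of all tested genes) and none rose (beside 12.2%), with a median of -0.82 (log2) and a range of -1.38 to -0.55. The 2 mitochondrial rRNAs, looked at after their values were seen, were not called: MT-RNR1 was at 813 and 854 RPKM in GADD45g libraries and 1391 and 888 RPKM in controls, and MT-RNR2 at 6560 and 4527 RPKM in GADD45g libraries and 10686 and 5676 RPKM in controls (limma adjusted p = 0.306 for each).

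Genes of the cytosolic ribosome were set beside them. Of 76 tested cytosolic genes 60 fell (78.9%, beside 26.7% of all tested genes) and none rose (beside 12.2%), with a median of -1.29 (log2) beside -0.72 for the mitochondrial set, and their summed level was 7378 and 6140 RPKM in GADD45g libraries and 16307 and 15524 RPKM in controls. The difference between the sets was not tested. Reads shared with processed pseudogenes make single values of either set uncertain. Mitochondrial ribosomal pseudogenes listed in all 4 files (11 IDs) summed to 1.47 and 0.0565 RPKM in GADD45g libraries and 0.985 and 0.0288 RPKM in controls. All 73 pseudogene IDs, listed only in the 3 complete libraries, summed to 11.8 RPKM in GADD45g replicate 2 and 8.42 and 11.0 RPKM in controls.

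**Figure D5:**
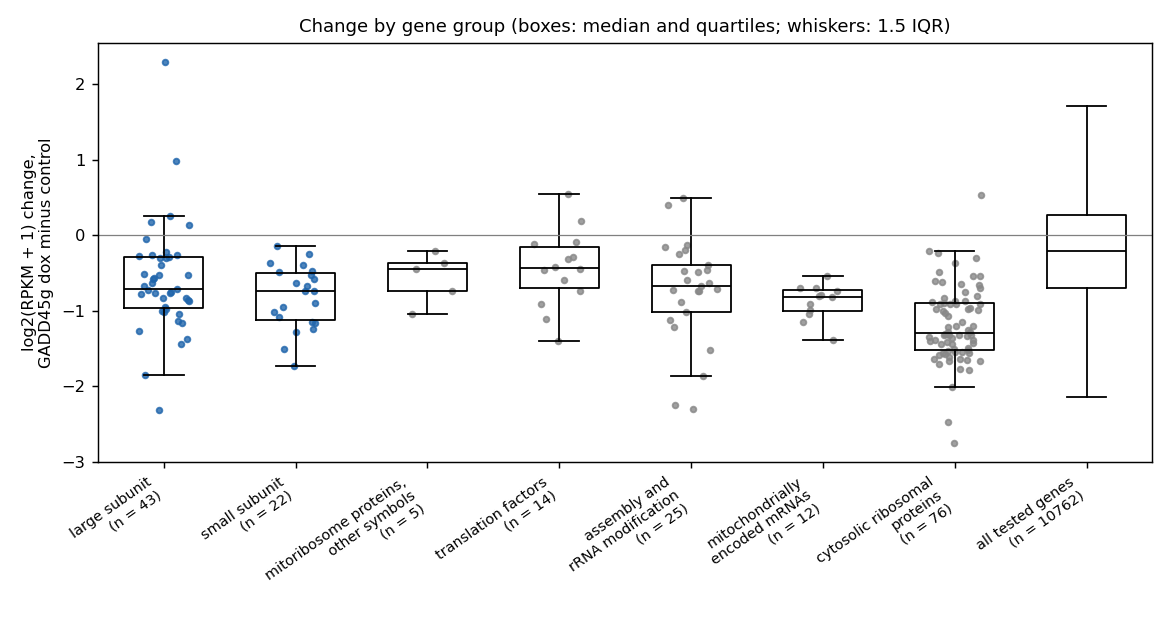
Change in log2(RPKM + 1), GADD45g minus untreated control, by gene group, with each gene as a point (points are omitted for all tested genes); boxes give the median and quartiles, whiskers reach the farthest gene within 1.5 times the box height. The medians run from -0.43 for translation factors to -1.29 for cytosolic ribosomal proteins, beside -0.21 for all tested genes, and MRPL52 is the highest point of the large subunit.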

How the data were processed

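The authors deposited RPKM by Ensembl gene ID for each library, per the file headers. TopHat, Cuffnorm, Cuffdiff and hg19 come from the submitters' processing notes, without roles; strand and RNA selection are not stated there. Low values (up to 20 reads) of IDs with identical models in GENCODE 29 were whole multiples of 1 read within 0.01 reads in 100.0% of cases, which gave depth and reads. A read in 1 kb was worth 0.0529 and 0.0626 RPKM in GADD45g libraries and 0.0533 and 0.0638 RPKM in controls. Limits from reads cover counting error only.

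The file of GADD45g replicate 1, as used here, is shortened. A table of gene names matched 51996 of 57820 IDs. Rows of 1 symbol were summed, genes in all 4 files with a mean of at least 1 RPKM were kept (10762), and limma 3.58.1 (R 4.3.3; lmFit, eBayes with trend) was run on log2(RPKM + 1). Tests were two-sided and p-values adjusted by Benjamini-Hochberg over these genes. The pseudocount makes folds of low genes look smaller on that scale; folds are ratios of mean RPKM. Group values are mean ± SD. The fit was also run on simulated data with independent values and a common SD for all genes. These libraries differ from that, so the run cannot vouch for the calls here.

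The members and gene lists were chosen with earlier results of these data known. Named genes were GADD45G and GADD45GIP1, the 12 largest called decreases without overlap, all called increases, the 5 smallest changes, the 5 highest levels, untested genes, and up to 4 genes with the smallest adjusted p of each companion list. Others are marked as chosen after their values were seen or stand as examples within a counted group. Alternatives were other pseudocounts, filters, scalings and priors, a replicate block and each library left out.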

Additional observations from a re-analysis of the deposited data

How the results depend on the processing

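Direction of the median and both increases (MRPL52 and MRPL55) held in all alternatives run. The count of genes that fell was 36 (54.5%, beside 26.7% of all tested genes). It was 20 of 70 without a filter on low values (28.6%, beside 7.94%) and 19 with trimmed-mean scaling (28.8%, beside 19.0%). With quantile normalization it was 21 (31.8%, beside 19.4%), and with the median change centred at 0 it was 22 (33.3%, beside 19.2%). The count was also lower with each library left out, for the members and for all tested genes. The median of -0.72 (log2) was -0.76 and -0.48 with pseudocounts of 0.1 and 5, -0.67 without a filter, -0.56, -0.49, -0.50 and -0.51 with upper-quartile, trimmed-mean, quantile and centred scaling, -0.76 with voom on the recovered reads, and -0.76 to -0.61 with 1 library left out. All calls (4186) came to 2464 without a filter and to 2605 to 3580 with 1 library left out. Companion genes that fell (26) came to 12 without a filter, 17 with trimmed-mean and with centred scaling, and 15 to 20 with 1 library left out, 15 without GADD45g replicate 2. Trimmed-mean scaling put the median of all tested genes at 0.0043 (log2), and higher calls then made up 17.8% and lower calls 19% of all tested genes. Signs (log2 change) turned for genes that were not called. MRPL40 was at 0.11, 0.18, 0.15 and 0.16 with upper-quartile, trimmed-mean, quantile and centred scaling, and at -0.205 to 0.0935 with 1 library left out. MRPS11 was at 0.0031, 0.0726, 0.0874 and 0.0613 under the same 4 scalings. MRPS36 was at 0.0323 with trimmed-mean scaling, 0.0065 with centring and -0.491 to 0.0811 with 1 library left out. MRPL14 was at 0.0256 with trimmed-mean scaling and -0.521 to 0.0653 with 1 library left out. With 1 library left out, MRPL41 was at -0.555 to 0.826, MRPL28 at -0.0549 to 0.389 and AURKAIP1 at -0.762 to 0.0177. Of 678 values of named genes under alternatives, 622 kept direction and side of the threshold, 39 lost the call and 17 turned. With 3 libraries, the lone sample is assumed to vary like the others. The cause of these shifts was not tested. Voom and the fit that kept genes missing from the shortened file were chosen after seeing the data. In the latter fit 28 of 71 fell (39.4%), beside 17.6% of all genes in it. With libraries paired by title suffix as a replicate block, 40 genes fell (60.6%, beside 31.5% of all tested genes) and 2 rose (beside 14.8%). In that fit 4984 of all tested genes were called. Deviations of same-numbered libraries had r = 0.35 over 10762 genes, with only 2 pairs. The suffix alone does not show that the libraries were paired, but both replicate 1 libraries shared the epithelial signal, which both replicate 2 libraries lacked.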
